A study of Homo sapiens with 3 samples.

Results

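The genes described here are 10 chemokine ligands, namely CCL2, CCL3, CCL4, CCL5, CCL7, CCL20, CCL22, CCL26 and CCL28 of the CC family and CX3CL1 (fractalkine), which is the ligand of the CX3C family. Members were found by the RefSeq accession attached to each array probe. Of the 10 genes, 8 were matched, each by 1 probe, out of 22439 genes named on the array and 58201 probes. CCL4 and CX3CL1 were matched by no probe under this rule and were not analysed here. The CCL2 probe was printed in 10 spots and the other 7 probes in 1 spot each.

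Expression was read in TK-10, an established line of human renal cell carcinoma, on 3 Agilent arrays with a single dye, 1 for each condition. One array was of cells given the vehicle, 0.1% DMSO. The next was of cells given cordyceps at 750 μg/ml according to the labels, where the study's methods name cordycepin, a nucleoside of Cordyceps fungi that resembles adenosine, at another dose, and the labels are followed here. The last was of cells given 10 μM sunitinib, an inhibitor of receptor tyrosine kinases. RNA was taken after 48 h in all 3 conditions, and per the labels the growth medium of all of them contained fetal bovine serum, nicotinamide, troglitazone and zinc sulfate. With 1 array per condition there is no replicate spread, so no difference below has a replicate check and no p-value is given. Each error quoted is the technical error that Agilent's Feature Extraction software assigned to the probe, and having 1 array for each condition limits how precise any ratio can be.

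Chemokines are small secreted proteins that direct the migration of leukocytes by binding G protein-coupled receptors on their surface. In the kidney, tubular epithelial cells make several of them when exposed to inflammatory cytokines, and renal carcinoma cells can make them as well. Transcription of many of these genes is driven by NF-κB and AP-1 after signals such as tumour necrosis factor or interleukin-1, whereas CCL22, CCL26 and CCL17 are better known as targets of interleukin-4 and interleukin-13 acting through STAT6. Several of the genes lie side by side in the genome, in the order of the RefSeq table of GRCh38.p14. CCL2 was followed directly by CCL7 and CCL3 by CCL4 on chromosome 17, which also carries CCL5. CCL22 was followed by CX3CL1 on chromosome 16, and CCL26 by CCL24 on chromosome 7. CCL20 lies on chromosome 2 and CCL28 on chromosome 5.

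Promoter sequences were given by RefSeq (GRCh38.p14) for 6 of the genes, with 9 entries in all. CCL20 is shown because its promoter held a match to the NF-κB consensus, written in capitals, on the minus strand of the window from 79 to 70 bases before the start. The 120 bases before the start, chr2:227813722-227813841 on the plus strand, read:
CCL20: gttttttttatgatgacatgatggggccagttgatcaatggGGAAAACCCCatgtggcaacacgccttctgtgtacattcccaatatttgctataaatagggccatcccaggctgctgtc

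CCL3 is shown beside its paralogue CCL3L3, because the transcripts of this pair are so alike that hybridisation of one to the probe of the other was possible. The 120 bases before each start are on the minus strand, at chr17:36090144-36090263 for CCL3 and chr17:36196759-36196878 for CCL3L3. Capitals mark the bases that differ when the windows are laid side by side without gaps.
CCL3: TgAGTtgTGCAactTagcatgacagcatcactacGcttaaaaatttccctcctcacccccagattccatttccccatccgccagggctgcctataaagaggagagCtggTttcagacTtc
CCL3L3: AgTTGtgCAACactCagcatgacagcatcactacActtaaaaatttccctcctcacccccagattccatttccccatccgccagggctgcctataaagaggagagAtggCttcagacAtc

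Of these 120 bases, 107 were equal, or 89.2%. Because no gaps were allowed, a run that both windows hold at shifted positions near their upstream end counts partly as differences. In promoter windows of 250 bases before to 50 bases after the start, searched on both strands, the NF-κB consensus was found in CCL20 and CCL22, which is 2 of the 9 entries, and in 2075 of all 35116 promoters of the table (5.91%). The AP-1 motif TGANTCA was found in CCL7 alone, against 7.71% of all promoters, and the STAT6 motif in none of the 9, against 6.44%. A match is a description of these letters only. CCL2 and CCL5 had no entry in the promoter table.

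A processed signal here is the spot's Cy3 intensity after background subtraction by the software, and a level is log2 of that signal less log2 of the 75th percentile of signals on that array. The 75th percentile was 165 on the vehicle array, 138 on the cordyceps array and 78.2 on the sunitinib array. Probes counted as detected were those that the software marked as well above background, which were 45.5%, 37.8% and 38.3% of all probes. The lowest signal so marked was 18.2, 30.2 and 18.3, so by unscaled signal the cordyceps array could detect only brighter spots than the other arrays. As levels these limits were −3.18, −2.19 and −2.09, higher on both treated arrays than on the vehicle array and highest with sunitinib. Bright streaks covered 566 spots of the cordyceps array and 40 of the sunitinib array, and none of the 17 spots of the chemokines lay in a streak on any array. Of the spots around them, 3 on the sunitinib array, all around CCL2 spots, exceeded the brightest of the other arrays by over 16-fold, with 0 such spots on the vehicle and cordyceps arrays. The 308 negative control spots had median signals of 4.37, 7.18 and 4.33. All 8 renal epithelial markers with a probe, PAX8, PAX2 and KRT18 among them, were well above background on all 3 arrays.

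CCL2 and CCL3 were well above background on every array. CCL20 and CCL28 were so on the vehicle array only, and CCL5 on the sunitinib array only. CCL7, CCL22 and CCL26 were not well above background on any array. Thus 4 of the 8 chemokines with a probe were detected in vehicle-treated cells, 2 in cordyceps-treated cells and 3 in sunitinib-treated cells. The plot of signals by array shows the drop of CCL2 and CCL3 beside the dim probes.

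**Figure D1:**
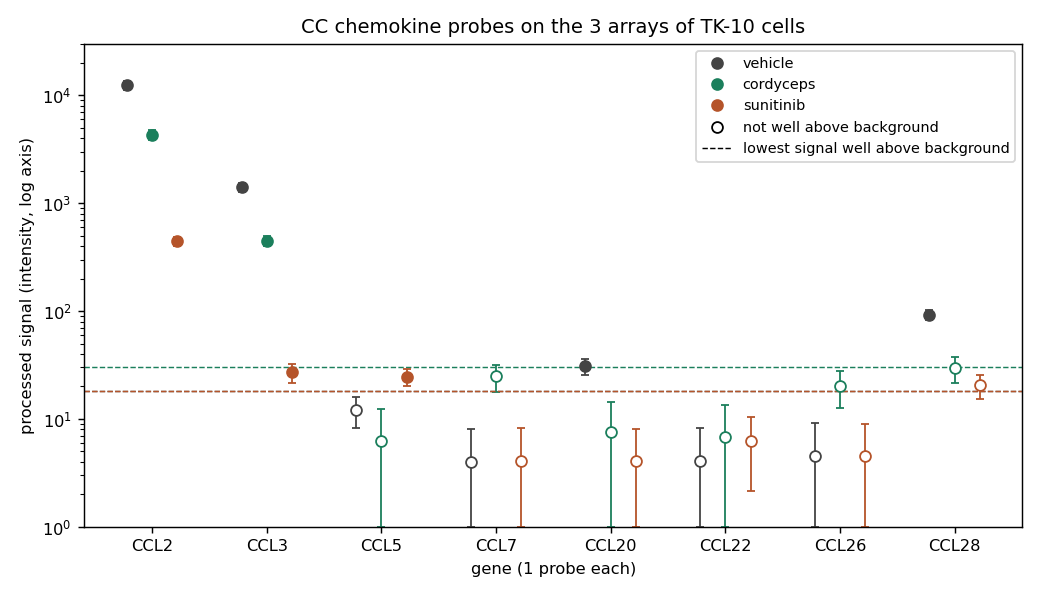
Processed signal (intensity, log axis) of the probe of each of 8 chemokines on the vehicle, cordyceps and sunitinib arrays, with bars for the technical error of the software; bars that reach the lower edge run to or below it, hollow points were not well above background, and dashed lines mark each array's lowest signal well above background (the vehicle and sunitinib lines nearly coincide). CCL2 and CCL3 stood in the order vehicle, cordyceps, sunitinib from high to low, and CCL7, CCL22 and CCL26 stayed below the line of their own array on all 3 arrays.

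Cells treated with cordyceps had lower signals for CCL2 and CCL3, the chemokines that were bright enough to be measured on both arrays. CCL2 was 2.42-fold lower and CCL3 2.64-fold lower relative to the 75th percentile. CCL28 was at least 2.57-fold lower, since it was no longer well above background. No chemokine was more than 2-fold higher. Of the 4 chemokines detected on at least 1 of the arrays, 3 were thus more than 2-fold lower and 0 higher, and CCL20 had no ratio, where over all 14786 genes compared 2.76% were more than 2-fold lower and 2.99% higher. CCL28 and CCL20 were detected on the vehicle array only, so the rule could not call them higher. With detection required on both arrays, 2 chemokines, CCL2 and CCL3, were lower and 0 higher. Of the 13031 genes so compared, 308 were lower and 322 higher. The median log2 ratio of the chemokines measured on both arrays, CCL2 and CCL3, was −1.34, against 0.01 for all genes so measured.

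Cells treated with sunitinib differed more from the vehicle-treated cells. CCL2 was 13.4-fold lower and CCL3 24.7-fold lower. CCL28, not well above background there, was 2.14-fold lower by its own signal (log2 technical error 0.39), whereas CCL5 was at least 2.86-fold higher. Of the 5 chemokines detected on at least 1 of the arrays, 3 were more than 2-fold lower and 1 was more than 2-fold higher, and CCL20 had no ratio, where over all 14912 genes compared 6.53% were lower and 6.5% higher. Being detected on 1 array only, CCL28 and CCL20 could not be called higher, nor CCL5 lower. With detection required on both arrays, 2 chemokines, CCL2 and CCL3, were lower and 0 higher. Of the 12995 genes so compared, 753 were lower and 725 higher. The median log2 ratio of CCL2 and CCL3 was −4.19, against −0.00 for all genes measured on both arrays. Both comparisons use the same vehicle array, so a high or low value on it enters both. The arrays hold RNA of whole cultures, so fewer cells with a transcript and less of it per cell cannot be told apart.

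CCL2 (MCP-1), which draws monocytes through the receptor CCR2, was the chemokine read in replicate spots. Its mean signal over 10 spots was 12498 on the vehicle array, 4328 on the cordyceps array and 442 on the sunitinib array. The spots ranged from 12149 to 12880, from 4250 to 4437 and from 401 to 460, respectively. Within an array the brightest and the dimmest spot were close together compared with the steps between arrays. These signals are not scaled between arrays, and the spot ranges of other probes were not compared in this way. The level was 6.25 ± 0.032 (SD, n = 10 spots) with vehicle, 4.97 ± 0.020 with cordyceps and 2.50 ± 0.056 with sunitinib. Spots of 1 array share the RNA, the labelling and the hybridisation, so these SDs describe the printing and reading of the array and not the spread between cultures.

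**Figure D2:**
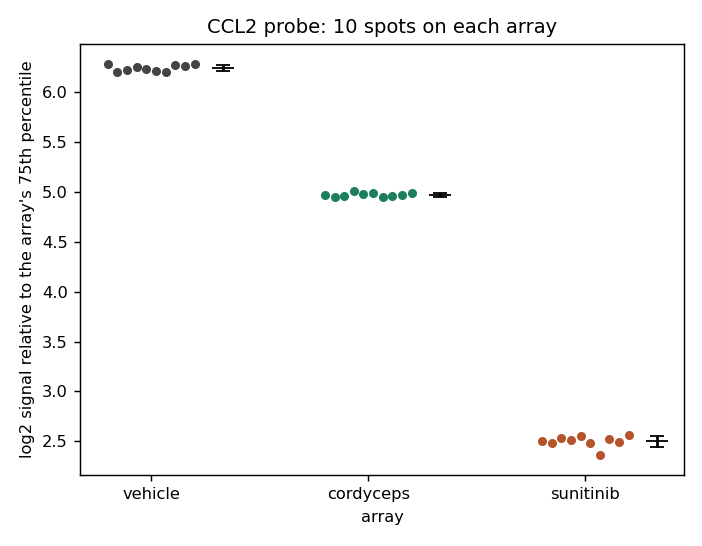
Level of CCL2 (log2 signal relative to the 75th percentile of the array) in each of its 10 spots on the 3 arrays, with the mean and SD over spots beside them. The spots of each array formed a tight group, centred at 6.25 with vehicle, 4.97 with cordyceps and 2.50 with sunitinib.

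Paired spot by spot, the log2 ratio of cordyceps over vehicle for CCL2 was −1.27 ± 0.030 (SD, n = 10 spots) and ran from −1.32 to −1.23. That of sunitinib over vehicle was −3.75 ± 0.048 and ran from −3.85 to −3.68. Every spot therefore gave the same direction in both comparisons. The software's own technical error on these log2 ratios was 0.20. Before scaling to the 75th percentile, the signal of CCL2 was 2.89-fold lower with cordyceps and 28.3-fold lower with sunitinib.

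In all 300 gene probes, that of CCL2 included, were printed in 10 spots, though fewer were used for some of them once outlier spots were left out. With sunitinib, CCL2 had the lowest log2 ratio of the 274 such probes measured on both arrays, whose ratios ran from −3.75 to 1.47 with a median of −0.15. With cordyceps it was the fifth lowest of 283, whose ratios ran from −2.10 to 1.84. Among all genes measured on both arrays, CCL2 ranked 8 from the lowest of 12995 with sunitinib and 141 from the lowest of 13031 with cordyceps.

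CCL3 (MIP-1α), a ligand of CCR1, had a signal of 1407 ± 141 (technical error) with vehicle, 447 ± 45.4 with cordyceps and 27.0 ± 5.62 with sunitinib. The sunitinib value lay just above the lowest detected signal of that array, and 2 of the 308 negative control spots were as bright. The log2 ratio was −1.40 with cordyceps (technical error 0.21) and −4.63 with sunitinib (technical error 0.33). Unscaled, the signal was 3.15-fold and 52.1-fold lower. CCL3 ranked 95 from the lowest of all measured genes with cordyceps and 4 from the lowest with sunitinib.

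The paralogue CCL3L3 was measured by 2 probes that were well above background on the vehicle array only, with signals of 93.7 and 51.3 there. Its brighter probe gave 32.8 with cordyceps and 5.20 with sunitinib. CCL3L3 was thus 2.39-fold lower with cordyceps by its own signal (log2 technical error 0.42) and at least 2.43-fold lower with sunitinib. With normexp these values came to log2 −0.46 and −0.19, within 2-fold. How much of the CCL3 signal came from CCL3L3 transcripts was not tested.

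The difference between the treated arrays was the same way for both genes. CCL2 was 5.55-fold higher with cordyceps than with sunitinib, a log2 difference of 2.47 with a technical error of 0.20. CCL3 was 9.38-fold higher, a log2 difference of 3.23 with a technical error of 0.33. The agents were used at 1 dose each and in different units, so these values stand side by side and do not compare potency.

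CCL28 (MEC), an epithelial chemokine that binds CCR10 and CCR3, had a signal of 92.7 ± 10.4 with vehicle, 29.8 ± 8.14 with cordyceps and 20.6 ± 5.15 with sunitinib. Only the first was well above background, and the ratios are those given above, log2 −1.36 and −1.10. The cordyceps value is a bound. The sunitinib value is the ratio of the probe's own signals, since 20.6 lay above that array's lowest detected signal of 18.3. Its technical error of 0.39 reaches inside 2-fold. Its level was −0.83 on the vehicle array and −2.21 and −1.92 on the treated arrays.

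CCL20 (MIP-3α), the ligand of CCR6, was dim even with vehicle, at 30.8 ± 5.11, and gave 7.55 ± 6.68 with cordyceps and 4.04 ± 4.05 with sunitinib. Neither treated array had it well above background, and 108 and 228 of the 308 negative controls were as bright. The cordyceps spot was marked positive and significant by the software, and the sunitinib spot was not. No fold is given, because the level of the vehicle array, −2.42, lay below the lowest level that counted as detected on the treated arrays, −2.19 and −2.09. With no floor, or with detection by a positive and significant signal, CCL20 also counted as more than 2-fold lower in both comparisons.

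CCL5 (RANTES), which attracts T cells and monocytes, was the chemokine that was higher with sunitinib. Its signal was 12.2 ± 3.98 with vehicle, 6.21 ± 6.24 with cordyceps and 24.7 ± 4.52 with sunitinib. On the sunitinib array 2 of the 308 negative controls were as bright, and on the vehicle array 6. The call rests on the scaling between arrays, since without scaling the bound was a log2 ratio of 0.44, and with normexp background correction it was 0.95.

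CCL7 (MCP-3), CCL22 (MDC) and CCL26 (eotaxin-3) gave no ratio. CCL7, a monocyte attractant, had signals of 4.01 with vehicle and 4.08 with sunitinib, and 24.8 ± 7.08 with cordyceps. CCL26, which attracts eosinophils through CCR3, had 4.55, 4.50 and, with cordyceps, 20.2 ± 7.65. For both genes the signal was brightest on the cordyceps array, where it was still below that array's lowest detected signal of 30.2 and where 6 and 7 negative controls were as bright as CCL7 and CCL26. CCL22, a ligand of CCR4, stayed between 4.09 and 6.76 on the 3 arrays.

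**Figure D3:**
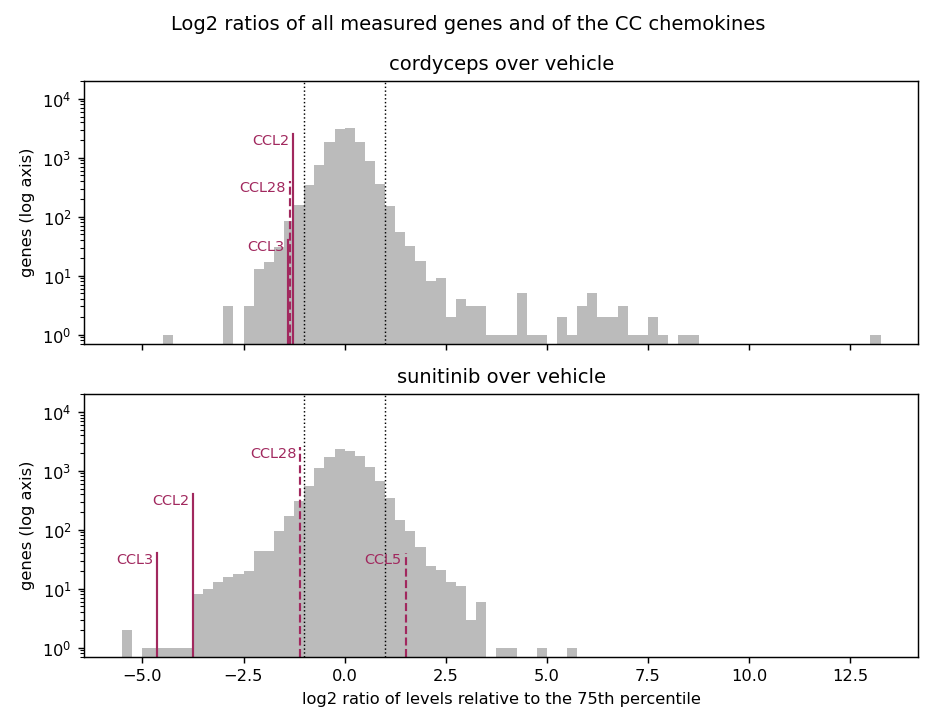
Number of genes (log axis) by log2 ratio over vehicle for all genes measured on both arrays (grey), with the chemokines at their ratios; solid lines are measured ratios, dashed lines are bounds, line heights only set the labels apart, and dotted lines mark 2-fold. CCL2 and CCL3 lay at −1.27 and −1.40 with cordyceps and at −3.75 and −4.63 with sunitinib, the latter in the lowest tail.

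The spread of all measured genes gives a scale for these values. The log2 ratios had an SD of 0.58 with cordyceps, with quartiles of −0.25 and 0.27, and an SD of 0.69 with sunitinib, with quartiles of −0.37 and 0.39. The technical error of a gene had a median of 0.21. This spread holds both differences between the conditions and differences between arrays, which cannot be told apart without replicates.

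Among 15 other CC ligands with a probe, 5 were detected on at least 1 of both arrays in each comparison, of which 2 were bounds and CCL17 had no ratio. The median of those measured on both arrays, CCL15 and CCL24, was a log2 ratio of 0.36 with cordyceps and 1.12 with sunitinib. With cordyceps 0 were higher and 2 lower, and with sunitinib 1 was higher and 2 lower. CCL4L2, the paralogue of CCL4 and the neighbour of CCL3L3, was at least 3.82-fold lower with cordyceps and at least 3.57-fold lower with sunitinib, the latter bound coming to log2 −0.77 with normexp. Of its 4 probes, 2 were well above background with vehicle, at 138 and 62.2, and none with either agent. How much of the CCL4L2 signal came from CCL4 transcripts was not tested. CCL24 (eotaxin-2), the neighbour of CCL26 and like it a ligand of CCR3, had signals of 3299 with vehicle, 3238 with cordyceps and 3805 with sunitinib. Its log2 ratio was 0.23 with cordyceps and 1.28 with sunitinib, and the latter was 0.21 without scaling. The neighbours CCL24 and CCL26 thus differed in detection, with CCL24 well above background on every array and CCL26 on none.

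The CXC chemokines, a family best known for neutrophil attraction, had 16 of 16 genes with a probe and 9 compared. With cordyceps 0 were higher and 2 lower, and the median log2 ratio of those measured on both arrays was 0.23. The pair were CXCL12, with a bound of −2.64, and CXCL6, with a measured −1.60. CXCL12 had several probes, and with the mean of all of them its value with cordyceps was a bound of −0.03. That bound was set by the array's lowest detected level, −2.19, and is not the ratio of the probe means. The probes well above background with vehicle had levels of 0.45, −1.42 and −2.43 there. With cordyceps they had −3.15, −3.10 and −4.12, none well above background.

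With sunitinib 7 of the 9 CXC chemokines were lower and 1, CXCL16, was 2.14-fold higher (a log2 ratio of 0.02 without scaling), and the median was −2.03. CXCL8 (interleukin-8) had a log2 ratio of −3.23, CXCL2 of −2.56, CXCL1 of −2.09 and CXCL6 of −2.03. CXCL12 had a bound of −2.54. The measured ones are nearer to 0 than those of CCL2 and CCL3 with the same agent.

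**Figure D4:**
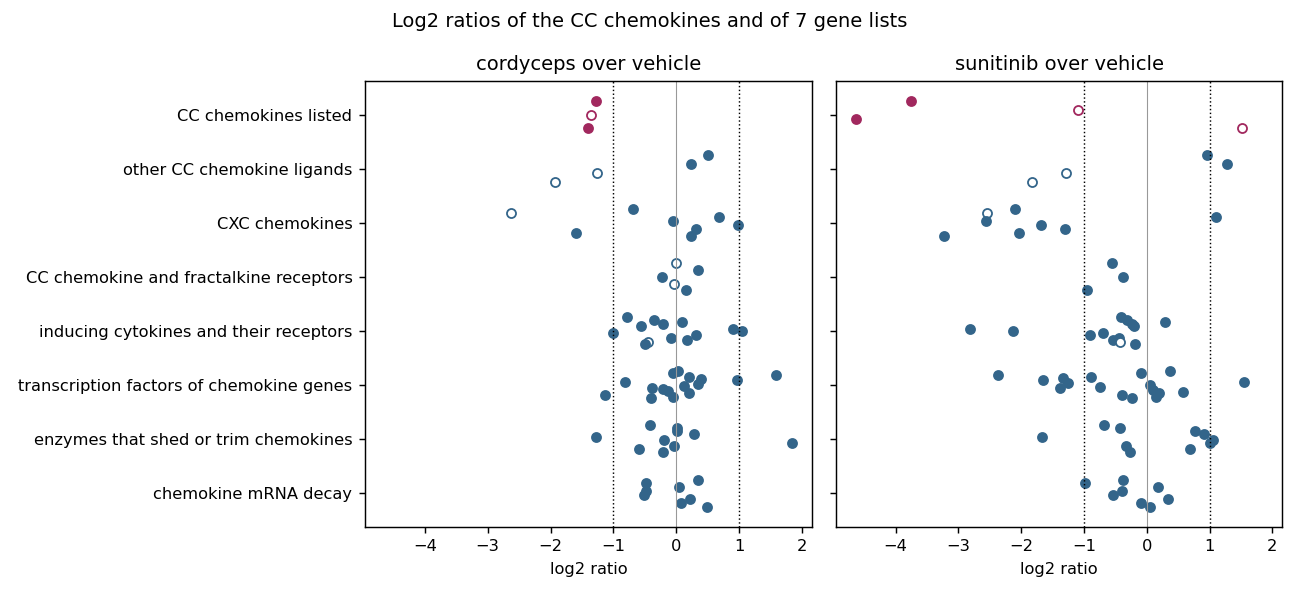
Log2 ratio over vehicle of each gene compared, for the 8 chemokines with a probe and for 7 lists of related genes; filled points were measured on both arrays, hollow points are bounds, genes with no ratio are left out, and dotted lines mark 2-fold. With sunitinib, CCL2 and CCL3 lay lowest of the genes drawn, followed by CXCL8.

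The receptors of these ligands were mostly dim. Of 15 receptors with a probe, 6 could be compared, and 0 were more than 2-fold higher or lower in either comparison, with medians of 0.15 and −0.55 for those measured on both arrays. CCR6, which binds CCL20, had signals of 877, 631 and 321 and log2 ratios of −0.22 and −0.38. CCR10, which binds CCL28, had signals of 386, 409 and 125 and log2 ratios of 0.34 and −0.55. CCR6 and CCR10 are named for their ligands, outside the rule for named genes. CCR2, the receptor of CCL2, and CCR1, CCR3 and CCR4 were not well above background on any array.

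Of the cytokines known to induce chemokines and their receptors, 13 of 19 could be compared. With cordyceps 1 was higher and 1 lower, with a median of −0.21. IL1B, which encodes interleukin-1β, had a log2 ratio of 1.04 there (0.79 without scaling), and IL1R1, its signalling receptor, of −1.01, which was −0.38 with normexp. With sunitinib 0 were higher and 2 lower, with a median of −0.42. These were IL1A at −2.81 and IL1B at −2.13. For IL1B the direction was thus higher with cordyceps and lower with sunitinib, whereas CCL2 and CCL3 were lower with both.

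Of the transcription factors and inhibitors that act on chemokine genes, 17 of 18 could be compared. With cordyceps FOSL1, an AP-1 subunit, was higher at 1.60, with a median of 0.00 for the list. With sunitinib 1 was higher and 5 lower, with a median of −0.23. The lower ones included FOSL1 at −2.37, JUN, another AP-1 subunit, at −1.66, NFKBIZ, a nuclear cofactor of NF-κB, at −1.38 and IRF1 at −1.33. The remaining one was NFKB1, the p50 subunit of NF-κB, at −1.25, and the higher one was JUNB at 1.55. JUNB came to 0.48 without scaling and IRF1 to −0.84 with normexp, both within 2-fold.

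Of the enzymes that shed or trim chemokines, 10 of 12 could be compared. DPP4, a peptidase that clips the amino end of several chemokines, had log2 ratios of −1.28 with cordyceps and −1.66 with sunitinib, which came to −0.87 and −0.996 with normexp and no longer passed 2-fold. MMP1, a collagenase that can cleave CC chemokines of the MCP group, had 1.84 and 1.01, and FURIN had −0.19 and 1.06. Without scaling, the sunitinib ratios of MMP1 and FURIN turned to −0.06 and −0.01. All 8 genes of chemokine mRNA decay, such as ZFP36 (tristetraprolin), were within 2-fold in both comparisons, with medians of 0.06 and −0.24.

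The genes whose pair of log2 ratios lay nearest to that of CCL2, by Euclidean distance over the 2 comparisons among 12480 genes detected on all 3 arrays, were TRPM2 (distance 0.59), DCN (0.62) and APCDD1L (0.89). TRPM2, a cation channel, had −1.02 with cordyceps and −3.21 with sunitinib. DCN, the matrix proteoglycan decorin, had −1.81 and −3.43. The nearest to CCL3 were CCL2 (0.89), DEFB4A (0.93), which encodes the antimicrobial peptide β-defensin 2, and DCN (1.27). A distance over 2 ratios from 3 arrays is a likeness of these values and no more.

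Markers of other cell types were read beside the chemokines, since leukocytes and fibroblasts also express CCL2. Of 7 leukocyte markers with a probe, 3, 1 and 2 were well above background on the vehicle, cordyceps and sunitinib arrays, and their summed signal was 4.96, 3.13 and 2.68 times the 75th percentile. CD14, the marker that stayed detected throughout, had signals of 693, 374 and 116 and log2 ratios of −0.64 and −1.50. The pan-leukocyte gene PTPRC (CD45) had probes that disagreed, and its brightest was dim, with 45.7 on the sunitinib array and a log2 ratio of 2.39 there. CD3E, MS4A1 and HLA-DRA were not well above background on any array. All 3 fibroblast markers, COL1A1, DCN and PDGFRB, were well above background on every array, with summed signals of 40.8, 12.8 and 12.1 times the percentile. COL1A1 had log2 ratios of −2.06 and −2.71, and PDGFRB of −0.19 and 0.66. Of 3 endothelial markers, 2, 2 and 1 were detected, with summed signals of 1.27, 1.16 and 1.02 times the percentile. COL1A1 and DCN were more than 2-fold lower in both comparisons, as CCL2 and CCL3 were, and CD14 was so with sunitinib. The part of these markers in the result was not tested.

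Other ways of processing left CCL2 and CCL3 lower in both comparisons. Under 11 alternatives the log2 ratio of CCL2 lay between −1.53 and −1.05 with cordyceps and between −4.82 and −3.74 with sunitinib. That of CCL3 lay between −1.65 and −1.18 and between −5.70 and −3.17. The values for CCL28 ran from −2.17 to −0.11 with sunitinib and from −1.62 to −0.54 with cordyceps, those nearest to 0 being from normexp, and under that setting they were no longer past 2-fold.

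**Figure D5:**
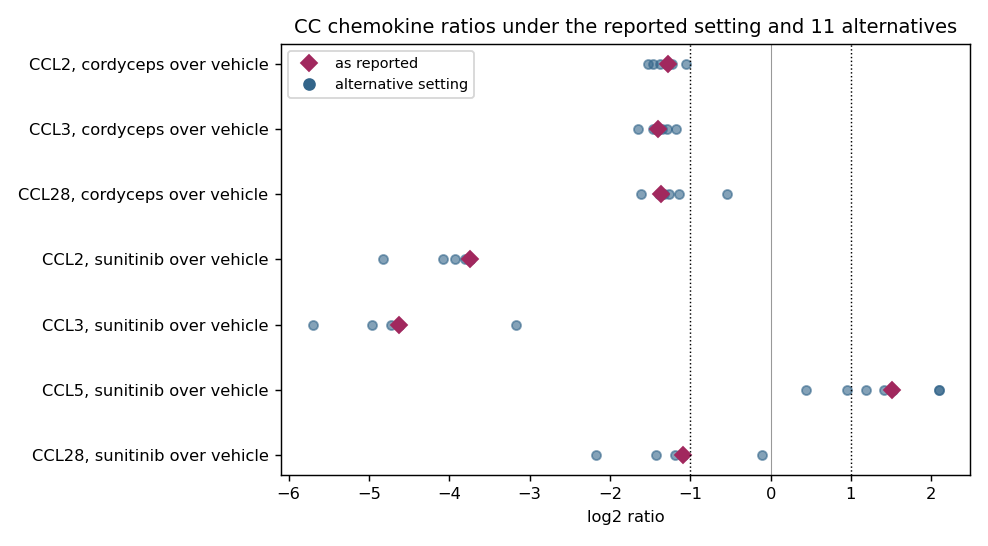
Log2 ratio over vehicle of each chemokine that passed 2-fold, as reported (diamonds) and under the alternatives that gave a value (circles), with dotted lines at 2-fold. All alternatives kept CCL2 and CCL3 past 2-fold in both comparisons, while CCL5 with sunitinib ranged from 0.44 to 2.10 and CCL28 came as near to 0 as −0.11.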

How the data were processed

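Per the labels, total RNA of TK-10 cells was labelled with Cy3 and hybridised to Agilent arrays, 1 per condition, all on 1 slide and in 1 scan. The authors deposited, for each array, the output of Feature Extraction 11.5.1.1 (header build hg19), whose processed signal is an intensity on a linear scale after background subtraction. They also deposited a table of processed intensity, which equalled the mean of a probe's spots within 0.01% for 99.9% of probes on each array and was not scaled between arrays. The study's methods describe a 2-colour array and a significance analysis, and only their 2-fold limit was taken.

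Control spots and 103, 121 and 63 outlier spots (vehicle, cordyceps, sunitinib) were left out, no spot was saturated, a probe's spots were averaged, and the array's 75th percentile was subtracted on the log2 scale. Probes were named by accession through a RefSeq table of GRCh38.p14, used for names, gene order and promoters, and the brightest probe stood for a gene. A gene was called past 2-fold if 1 or both arrays had it well above background. Where the dimmer array was not, the fold is a bound: the brighter level against the higher of that array's lowest detected level and the probe's own. Where the probe's own level was used, the value is still counted as a bound but is the plain ratio and not a minimum. No ratio is given where the bound is not above 1, and medians take such a gene at 0.

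All chemokines were named, with at most 5 called genes per list and comparison by size, the remaining called gene of a list where it completes a count, and the 3 genes nearest to CCL2 and CCL3. The members, the 7 gene lists and the 4 marker lists were chosen with earlier results of these data known. The 11 alternatives changed scaling, background correction (limma normexp, offset 50), the dim-probe filter, averaging of probes, outlier spots and streaks. limma 3.58.1 ran under R 4.3.3 and all else under Python 3.11.15 with pandas 2.3.3, numpy 2.4.6 and scipy 1.17.1. The calculations were tested on simulated arrays. Some genes of the lists are not reported here.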

Additional observations from a re-analysis of the deposited data

How the results depend on the processing

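Of 44 counts recomputed under 11 alternatives, 37 stayed within 1.5 times the reported count, and 0 of 74 recomputed ratios of the chemokines changed direction. Among the 74, values of CCL28 and CCL5 that stayed bounds could not change direction, since a bound not above 1 gives no ratio. For them the direction is therefore no check. The numbers of chemokines more than 2-fold lower, 3 in each comparison, stayed between 2 (CCL2 and CCL3, with normexp or both arrays well above background) and 4 (CCL20 added, with no filter or a positive and significant signal). The count more than 2-fold higher with cordyceps, reported as 0, became 2 (CCL7 and CCL26) with no filter and no floor, and 2 with detection by a positive and significant signal. The count more than 2-fold higher with sunitinib, reported as 1 (CCL5), became 0 with the unscaled series matrix, 0 with normexp and 0 when both arrays had to be well above background, 4 with no filter and no floor (CCL5, CCL7, CCL22 and CCL26) and 2 with a positive and significant signal (CCL5 and CCL22). Fewer probes qualify by construction under the stricter filter and more under the looser ones, and for the other settings the cause was not tested.

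Over all genes, the cordyceps comparison had 442 higher and 408 lower, against 746 and 223 with scaling to the median, 274 and 831 unscaled, 192 and 187 with normexp, 1636 and 975 with no filter, and 939 and 975 with a positive and significant signal. The sunitinib comparison had 969 and 974, against 532 and 1937, 162 and 8007, 330 and 842, 6218 and 1513, and 2391 and 1513. Scaling to the median moved the median gene by 0.22 and −0.33 on the log2 scale, leaving the arrays unscaled by −0.26 and −1.07, and normexp by −0.07 and −0.25. Signal over background limited CCL5, CCL7, CCL20, CCL22, CCL26 and CCL28. No paired analysis was possible because each condition has 1 array. Leaving out a replicate was not possible for that reason.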
